A study of Trichoderma guizhouense with 100 samples.

Results

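Of the 11244 genes of the filamentous fungus Trichoderma guizhouense NJAU4742 in the expression table, 60 had a description that names an enzyme of glycolysis or of the tricarboxylic acid (TCA) cycle and form the set described here. A gene was a member when its description held, in any case, hexokinase, glucokinase, phosphofructokinase, aldolase, triosephosphate isomerase, glyceraldehyde-3-phosphate dehydrogenase, phosphoglycerate, enolase, pyruvate kinase, pyruvate dehydrogenase, citrate synthase, aconit, isocitrate dehydrogenase, succinate dehydrogenase, fumarase or malate dehydrogenase, and did not hold mitochond. The rule uses no expression value. The words described the pathways only in part. Glycolysis steps made up 17 of the 60 members, subunits of the pyruvate dehydrogenase (PDH) complex 3, its kinase and phosphatase 2, and TCA cycle enzymes 6. The other 32 members shared a word but were assigned to no step, among them 3 transaldolases, 2 phospho-2-dehydro-3-deoxyheptonate (DAHP) aldolases of aromatic amino acid synthesis, the 3-phosphoglycerate dehydrogenases of serine synthesis and the 3-isopropylmalate dehydrogenases of leucine synthesis. The sorting followed the descriptions. Those of some of the 32, such as the isocitrate/isopropylmalate dehydrogenases and the phosphoglycerate mutase family proteins, do not exclude a step. The TCA cycle was thus thinly covered, because 7 matching genes, including citrate synthase, both NAD-dependent isocitrate dehydrogenase subunits and the catalytic subunits of succinate dehydrogenase, have mitochondrial in their description. Of the 60 members, 56 exceeded 1 RPKM (reads per kilobase of transcript relative to the mapped reads, the study's name for the unit, which its methods also call FPKM, with no word on how libraries were scaled to each other) in at least 2 libraries and were tested. The other 4 were a class II fructose-bisphosphate aldolase (OPB46511), a D-3-phosphoglycerate dehydrogenase listed at 0 in every library (OPB38109), an enolase C-terminal domain-like protein (OPB40714) and an aconitase family protein (OPB41353).

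The 100 RNA-seq libraries came from mycelium of 4 strains, namely ∆Tgxyr1 (30 libraries in 10 groups), ∆Tgace1 (21 in 7), ∆Tgace2 (21 in 7) and the wild-type strain WT NJAU4742 (28 in 10). In each mutant the named transcription factor gene had been replaced by the hph cassette for hygromycin resistance, and the number of independent clones was not stated in the sources used here. Mycelium was grown on glucose (0 h), washed, and moved to xylan or to Avicel, a microcrystalline cellulose, for 4, 24 or 72 h. ∆Tgxyr1 and WT were also kept without a carbon source (carbon starvation, CS) for the same times. Every group had 3 libraries except WT CS at 4 h and at 72 h, which had 2. Values are RPKM as deposited and are scaled to transcript length, so that levels can be set side by side between genes. Differences are given on the log2(RPKM + 1) scale with their standard error from 1 limma model of all 34 groups, and the adjusted p is the Benjamini-Hochberg value over the 10026 genes tested. A gene is said to have passed at an adjusted p of 0.05 or less, and to be called at 0.01 or less where the groups also differed by 2 or more on the log2 scale and the higher one averaged over 2 RPKM. Each library averages a whole mycelium, so that a change in the mix of hyphae and a change in the RNA of each cell cannot be told apart.

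The target gene of ∆Tgxyr1 matched the label and did not exceed 0.168 RPKM in any of its libraries, against 1.29 to 143 RPKM in WT. TgACE1 was not analysed here, so the ∆Tgace1 label was not checked. RPKM summed over all genes ranged from 553844 to 3295522 per library, and sequencing depth is unknown. In 6 libraries the mean correlation with their own group was under 0.96 and a library of another group lay nearest. They were WT Avicel 72 h replicate 2, which lay nearest to WT CS 72 h, and 5 ∆Tgace1 libraries (0 h replicate 3, xylan 24 h replicate 2, Avicel 4 h replicate 2, Avicel 24 h replicate 1 and Avicel 72 h replicate 3). Counts of members that passed in comparisons that include their groups are given with and without them. All other comparisons are given with them only, and there they still enter the spread of the 1 model of all 34 groups.

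Glycolysis converts glucose into pyruvate in the cytosol. Hexokinase or glucokinase, phosphofructokinase and pyruvate kinase catalyse its practically irreversible steps, and the enzymes between them, from aldolase to enolase, work in both directions and also serve gluconeogenesis. The PDH complex turns pyruvate into acetyl-CoA for the TCA cycle, its kinase switches it off by phosphorylation and its phosphatase switches it on again. In Trichoderma reesei, Xyr1 is the main activator of cellulase and xylanase genes, and ACE1 acts as a repressor.

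The enzymes of the later steps of glycolysis included the most abundant members. Enolase (OPB39612), which forms phosphoenolpyruvate, had the highest mean over the 100 libraries with 6208 RPKM. Glyceraldehyde-3-phosphate dehydrogenase (GAPDH) isozyme 2 (OPB42422) followed with 4938, phosphoglycerate kinase (OPB40278) with 3261, GAPDH 1 (OPB42895) with 2861, phosphoglycerate mutase (OPB36681) with 1355 and fructose-bisphosphate aldolase (OPB40445) with 1114 RPKM. Steps that commit carbon were lower, with 534 RPKM for glucokinase (OPB41622), 202 for pyruvate kinase (OPB44679) and 182 for phosphofructokinase (OPB45222). The most abundant gene described as a hexokinase (OPB42146) had 33.7 RPKM. Triosephosphate isomerase (OPB43097), which works in both directions, lay among them with 443 RPKM. Among the TCA members, a lactate/malate dehydrogenase (OPB46625) had 543 RPKM, a cytochrome b subunit of succinate dehydrogenase (OPB37196) 402, malate dehydrogenase (OPB40371) 400.4 and aconitate hydratase (OPB37468) 62.2 RPKM. Some members outside the pathways were as abundant, such as D-3-phosphoglycerate dehydrogenase (OPB42635) with 2316, a trans-aconitate 2-methyltransferase-like gene (OPB41193) with 2007 and a transaldolase (OPB41593) with 1306 RPKM. The group means of enolase ran between 13658 RPKM in ∆Tgxyr1 on Avicel at 4 h and 229.5 RPKM in WT at CS 72 h. GAPDH 1 had the widest range of group means among the tested glycolysis genes, between 10986 RPKM in ∆Tgxyr1 on xylan at 24 h and 0.115 RPKM in WT at CS 72 h.

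In WT, GAPDH 1, phosphoglycerate kinase, phosphoglycerate mutase and enolase were lower on Avicel and under carbon starvation at 24 h than at 0 h, whereas on xylan at 24 h no glycolysis gene passed as lower (lowest difference -1.01). The median log2 difference from 0 h over the 16 tested glycolysis genes was 0.77 on xylan at 24 h, -1.28 on Avicel at 24 h and -1.20 at CS 24 h, and reached -2.07 at CS 72 h, while over all genes tested it was -0.01, 0.06, 0 and 0.03 in the same order. On Avicel at 24 h 10 of these 16 genes passed as lower and 4 as higher than at 0 h, at CS 24 h 10 and 5, at CS 72 h 12 and 4, and on xylan at 24 h none and 7. Of all 56 tested members, 28 passed as lower and 12 as higher on Avicel at 24 h, where 27.5% of all genes tested were lower and 30.3% higher, so that lower values were more frequent than among all genes. At CS 24 h the counts were 26 lower and 14 higher (all genes 26.8% and 27.3%), and at CS 72 h 29 lower and 16 higher (all genes 29.3% and 30.5%). On xylan at 24 h 6 were lower and 18 higher (all genes 21.8% and 22.4%). These 9 comparisons share the 0 h libraries.

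At 4 h the 3 media gave more even counts. On xylan 19 members were higher and 18 lower (all genes 53.2% in either direction), on Avicel 12 and 13 (41.9%) and at CS 12 and 12 (35.5%). At 72 h on xylan 18 were higher and 17 lower (58.2%). On Avicel at 72 h 12 were higher and 14 lower (34.8%), but replicate 2 of that group stands apart, and without it 19 were higher and 6 lower (all genes 40.3%), 10 glycolysis genes passed as higher and 1 as lower, and the glycolysis median was 0.78 instead of -0.18. Called members numbered 13 on xylan at 72 h (all genes 16.4%), 13 on Avicel at 24 h (13.9%), 13 at CS 24 h (12.3%) and 19 at CS 72 h (18.2%), of which 15 were lower at CS 72 h where 10.6% of all genes were called lower.

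**Figure D1:**
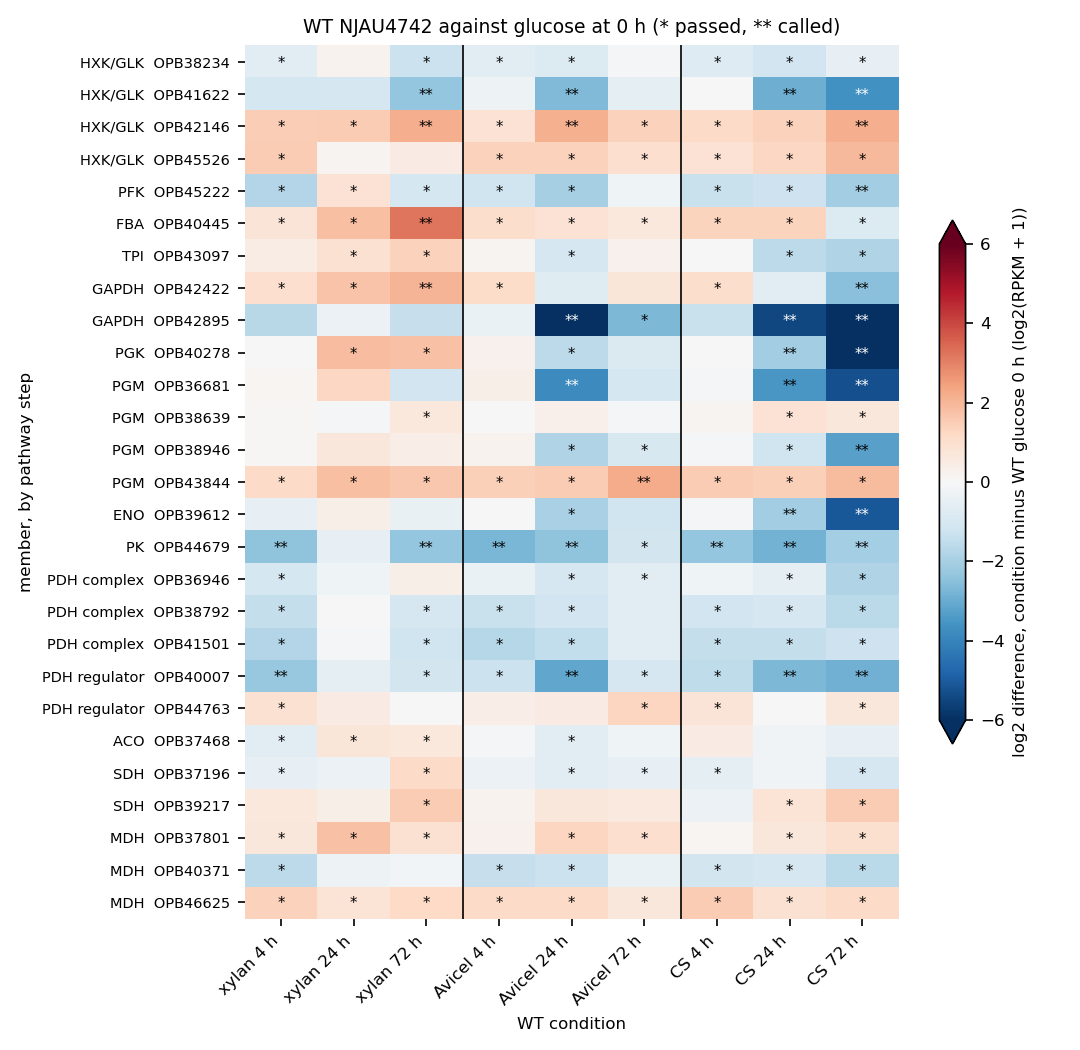
Log2 difference from WT glucose at 0 h (log2(RPKM + 1) scale, colour limited to -6 and 6) of the 27 tested members of a named step, one line per gene by pathway step and one column per WT condition. One asterisk marks an adjusted p of 0.05 or less and a pair of asterisks a called gene, and GAPDH 1 (OPB42895) reaches -6.59 in the Avicel 24 h column and -11.29 in the CS 72 h column.

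GAPDH 1 showed the largest fall. This enzyme carries out the oxidative step of glycolysis, and it had 3065, 3081 and 2291 RPKM in the 3 WT libraries at 0 h, 2020.0, 2104 and 2265 RPKM after 4 h on Avicel and 25.9, 17.3 and 47.8 RPKM at 24 h. Under carbon starvation it had 1087 and 1142 RPKM at 4 h, 58.5, 65.9 and 65.05 at 24 h and 0.172 and 0.0573 at 72 h. No library of Avicel 24 h, CS 24 h or CS 72 h overlapped the 0 h libraries, and the log2 differences were -6.59 ± 0.87 (adjusted p = 1.46e-09), -5.44 ± 0.87 (adjusted p = 2.38e-07) and -11.29 ± 0.98 (adjusted p = 1.23e-15). On xylan it lay between 757 and 2492 RPKM. The 24 h libraries overlapped those at 0 h, and the 4 h and 72 h libraries all lay below those at 0 h. On Avicel at 72 h the 3 libraries had 1461, 8.31 and 5996 RPKM, the lowest being the library that stands apart, and the difference from 0 h was -2.68 ± 0.87 (adjusted p = 0.0123) with it and 0.09 ± 0.42 (adjusted p = 0.908) without it.

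The other GAPDH gene followed another course. Isozyme 2 had 2585, 2518 and 2010.5 RPKM at 0 h and 4631, 5035 and 4699.9, 7918, 7379.8 and 8179 and then 10056, 9275 and 9638 RPKM on xylan at 4, 24 and 72 h, a rise of 2.03 ± 0.37 (adjusted p = 3.04e-06) at 72 h with no overlap. On Avicel at 24 h it had 1445, 1449 and 1413 RPKM, which lay below all 0 h libraries but did not pass (-0.71 ± 0.37, adjusted p = 0.0947). At CS 72 h it had 391 and 430.1 RPKM and fell by 2.52 ± 0.42 (adjusted p = 4.18e-07). GAPDH 1 supplied 13.3% of the summed glycolysis RPKM at 0 h, 3.10% on xylan at 72 h and 0.479% on Avicel at 24 h.

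Phosphoglycerate kinase, phosphoglycerate mutase and enolase, which carry the 3-carbon acids to phosphoenolpyruvate, fell as well on Avicel at 24 h and under CS. Phosphoglycerate kinase had 3051, 3052 and 2374 RPKM at 0 h, 679.6, 660.0 and 614 at CS 24 h and 41.4 and 44.4 RPKM at CS 72 h, where the mean of 42.9 RPKM, against 2826 at 0 h, was called as lower (SE of the log2 difference 0.65, adjusted p = 3.84e-12). On Avicel at 24 h it had 968, 1006 and 890.0 RPKM (-1.56 ± 0.58, adjusted p = 0.0185), and on xylan at 24 h 9569, 10148 and 10703 RPKM (1.85 ± 0.58, adjusted p = 0.00699), so that its values lay below the 0 h libraries on Avicel and above them on xylan. The mutase OPB36681 had 66.3, 75.03 and 102 RPKM on Avicel at 24 h and 28.9 and 27.7 at CS 72 h, against 1254, 1285 and 883 RPKM at 0 h. Its differences of -3.80 ± 0.65 on Avicel at 24 h (adjusted p = 8.68e-07) and -5.26 ± 0.73 at CS 72 h (adjusted p = 4.93e-09) were called. Enolase had 1954, 2189 and 1966 RPKM on Avicel at 24 h, 1980.5, 1811 and 1872 at CS 24 h and 227 and 232 at CS 72 h, against 8966, 8876 and 6319.8 RPKM at 0 h, with differences of -1.97 ± 0.55, -2.08 ± 0.55 and -5.11 ± 0.62 (adjusted p = 0.00168, 0.00104 and 1.05e-10), of which the CS ones were called.

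**Figure D2:**
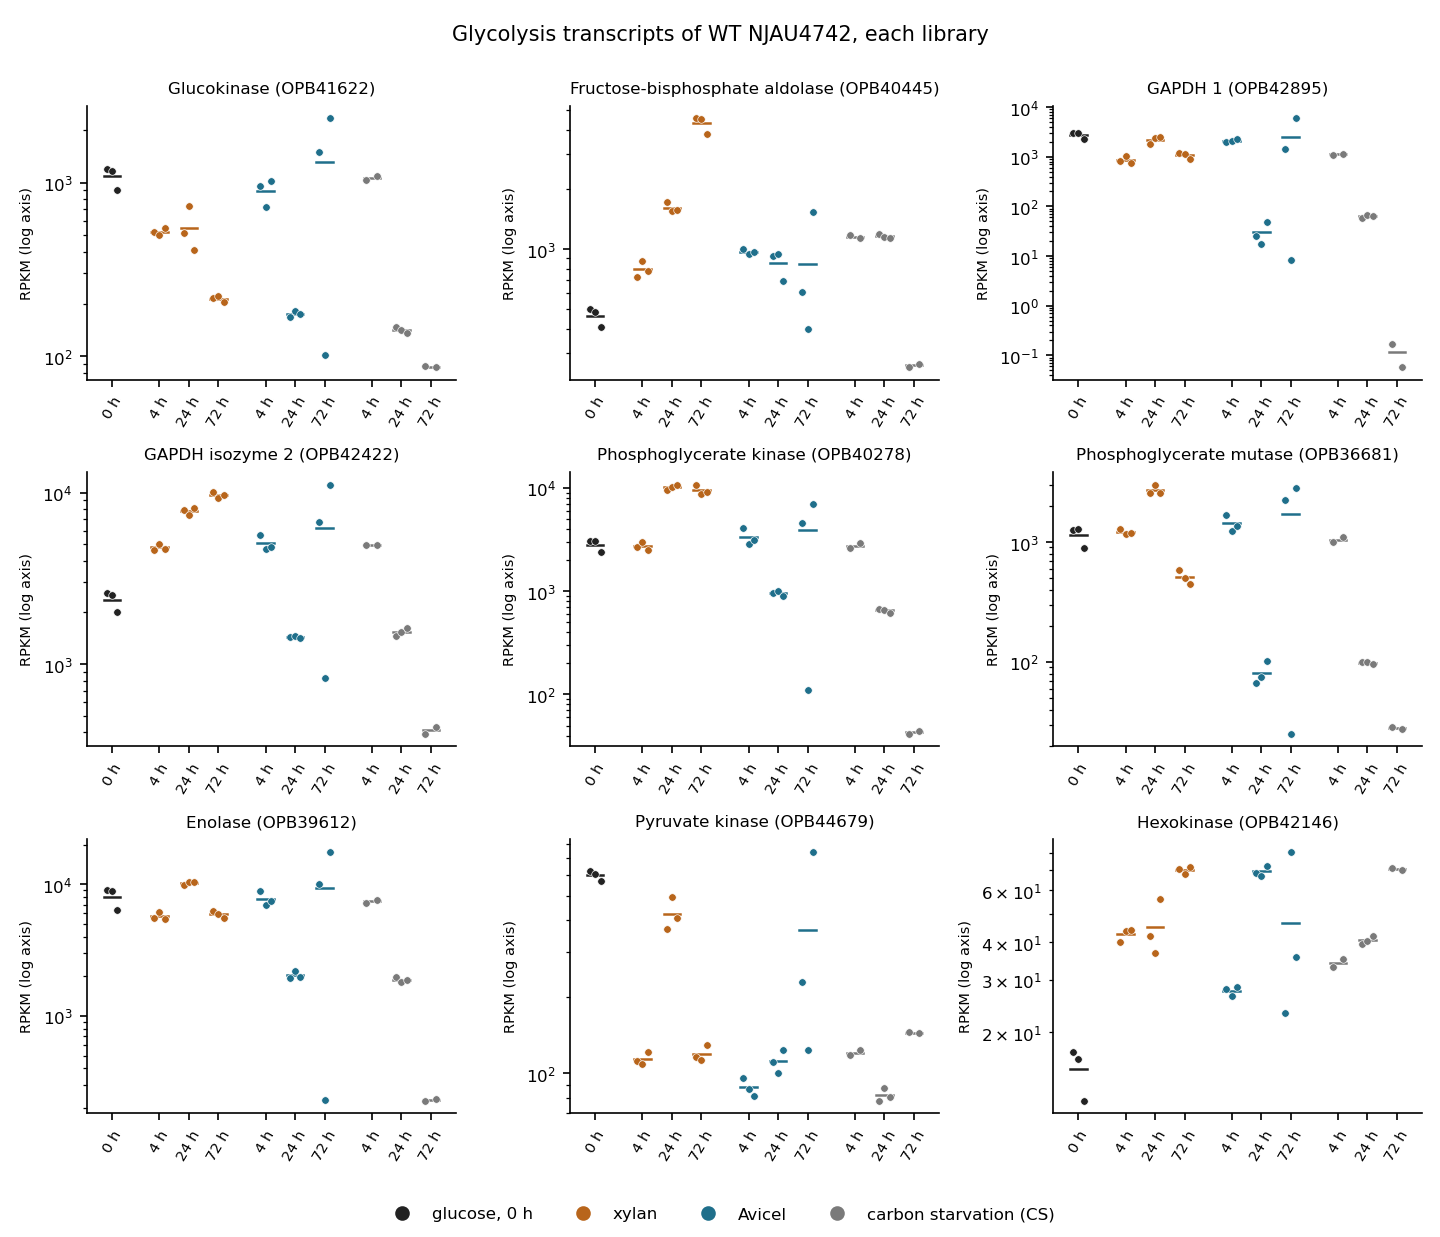
RPKM (log axis) of 9 glycolysis genes in each WT library, by condition (glucose 0 h, then xylan, Avicel and CS at 4, 24 and 72 h), with the group mean as a bar. GAPDH 1, phosphoglycerate kinase, mutase and enolase are lowest at CS 72 h, where GAPDH 1 is at 0.115 RPKM, and in 1 of the 3 Avicel 72 h libraries enolase is at 229 RPKM, between the CS 72 h libraries, and GAPDH 1 at 8.31 RPKM, above them.

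The steps that commit carbon behaved differently from each other. Glucokinase, the first step, had 217, 222 and 205 RPKM on xylan at 72 h, 167, 181 and 174 on Avicel at 24 h and 148, 141 and 136 at CS 24 h, against 1189, 1170.2 and 904 RPKM at 0 h. The differences were -2.33 ± 0.53, -2.63 ± 0.53 and -2.92 ± 0.53 (adjusted p = 0.000104, 1.68e-05 and 2.59e-06), all of these libraries lying below those at 0 h. The hexokinase gene OPB42146 went the other way and passed as higher in 9 of 9 comparisons with 0 h. It had 68.3, 67.1 and 72.5 RPKM on Avicel at 24 h (2.15 ± 0.23, adjusted p = 1.56e-12) and 70.4, 68.1 and 71.7 on xylan at 72 h (2.16 ± 0.23, adjusted p = 6.12e-13), all above the 17.1, 16.2 and 11.8 RPKM at 0 h. Of the other hexokinase genes, OPB38234 passed as lower in 7 of 9 comparisons and the low OPB45526, with a mean of 2.63 RPKM, as higher in 7 of 9, none of them called.

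Pyruvate kinase, the last step, was lower already at 4 h on every medium. It had 112, 108 and 121 RPKM on xylan, 96.04, 87.1 and 81.2 on Avicel and 118 and 123 under CS at 4 h, against 627, 611 and 569 RPKM at 0 h, with no overlap and differences of -2.39 ± 0.33 (adjusted p = 4.7e-09), -2.76 ± 0.33 (adjusted p = 1.47e-10) and -2.31 ± 0.37 (adjusted p = 5.45e-07). On xylan at 24 h its libraries were back at 369, 496 and 408 RPKM, which did not pass against 0 h (-0.51 ± 0.33, adjusted p = 0.209), and it passed as lower in the other 8 comparisons. Phosphofructokinase, which forms fructose-1,6-bisphosphate, passed as lower in 7 of 9 comparisons but was higher on xylan at 24 h, with 257, 396 and 261 RPKM against 191, 199.9 and 118 RPKM at 0 h (0.85 ± 0.34, adjusted p = 0.0374). Aldolase, the next step, rose in 8 of 9 comparisons. On xylan it had 729, 873 and 775 RPKM at 4 h, 1730.0, 1552 and 1574 at 24 h and 4564, 4529.5 and 3820.4 at 72 h after 502, 486 and 407 RPKM at 0 h, and the difference at 72 h was 3.21 ± 0.26 (adjusted p = 6.96e-18). At CS 72 h it had 255 and 267 RPKM and fell by 0.83 ± 0.29 (adjusted p = 0.0102). Triosephosphate isomerase, which interconverts the triose phosphates, had 2388, 2009 and 2112 RPKM on xylan at 72 h (1.40 ± 0.31, adjusted p = 8.41e-05) and 269, 282 and 266 at CS 24 h (-1.58 ± 0.31, adjusted p = 1.44e-05), against 901, 909 and 667 RPKM at 0 h.

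The PDH complex and its kinase were mostly lower after the move from glucose. The E1 subunits, which decarboxylate pyruvate, passed as lower in 7 of 9 comparisons each, the exceptions being xylan at 24 h and Avicel at 72 h. E1 alpha (OPB41501) had 190.5, 192 and 169 RPKM at 0 h, 48.3, 55.99 and 55.1 on xylan at 4 h (-1.77 ± 0.26, adjusted p = 1.64e-08) and 150.2, 195 and 165 at 24 h (-0.12 ± 0.26, adjusted p = 0.757), so that the 4 h libraries lay below those at 0 h and the 24 h libraries overlapped them. E1 beta (OPB38792) had 116, 129.5 and 135 RPKM on Avicel at 4 h and 343, 345 and 286 RPKM at 0 h (-1.35 ± 0.28, adjusted p = 6.36e-05). On Avicel at 72 h the PDH kinase and the E3 subunit passed as lower only with the library that stands apart (-0.13 ± 0.23, adjusted p = 0.689 and -0.16 ± 0.14, adjusted p = 0.376 without it). The E3 subunit (OPB36946), shared with the 2-oxoglutarate dehydrogenase complex, passed as lower in 5 of 9. The putative PDH kinase (OPB40007) passed as lower in 8 of 9 and was called in 4. It had 32.2, 28.1 and 27.7 RPKM on Avicel at 24 h (-3.13 ± 0.30, adjusted p = 5.17e-14) and 39.6, 40.8 and 40.4 at CS 24 h (-2.69 ± 0.30, adjusted p = 1.3e-11), all below the 253, 246 and 297 RPKM at 0 h. The phosphatase (OPB44763), with group means of at most 3.08 RPKM in WT, passed as higher in 4 of 9.

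**Figure D3:**
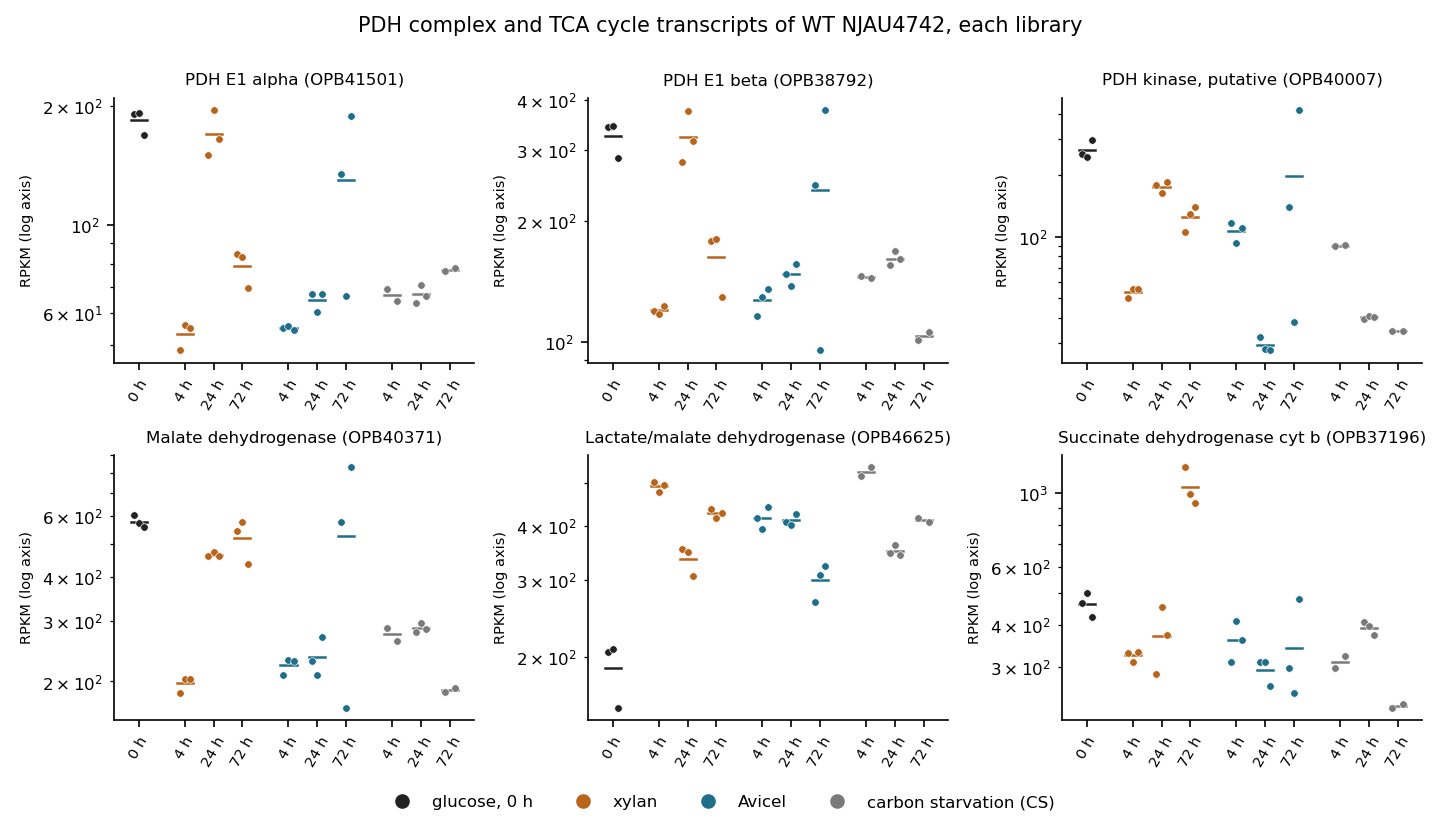
RPKM (log axis) of 2 PDH subunits, the putative PDH kinase and 3 TCA cycle members in each WT library by condition, with the group mean as a bar. The kinase has its lowest libraries on Avicel at 24 h (27.7 to 32.2 RPKM) and the succinate dehydrogenase cytochrome b subunit its highest on xylan at 72 h (936 to 1195 RPKM).

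None of the 6 TCA members was called against 0 h in WT, and those that passed went in both directions. On xylan at 72 h 5 of 6 passed as higher and none as lower, with a median of 1.04 against 0 over all genes. The succinate dehydrogenase cytochrome b subunit OPB37196, a membrane anchor of the complex, had 1195, 992 and 936 RPKM there and 465, 500.1 and 424 RPKM at 0 h (1.16 ± 0.18, adjusted p = 5.41e-08), with no overlap. Malate dehydrogenase OPB40371, which forms oxaloacetate, fell at 4 h on xylan to 185, 203 and 204 RPKM, against 606, 575 and 558 RPKM at 0 h (-1.55 ± 0.28, adjusted p = 4.08e-06). The lactate/malate dehydrogenase OPB46625 rose in 9 of 9 comparisons, by between 0.673 and 1.502. Malate dehydrogenase OPB37801, with a mean of 16.8 RPKM, rose in 7 of 9.

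Some of the largest WT changes lay in members that are no glycolysis or TCA step. D-3-phosphoglycerate dehydrogenase (OPB42635), which draws 3-phosphoglycerate into serine synthesis, had 551, 587 and 307 RPKM at 0 h, 2157, 2150.3 and 1843 on xylan at 4 h, 2916, 3625 and 3947 at 24 h and 7886, 7029 and 7255 at 72 h, a rise of 3.99 ± 0.35 (adjusted p = 6.03e-16). At CS 24 h it was also higher, with 2174, 2059 and 2146 RPKM (2.20 ± 0.35, adjusted p = 2.43e-07), but at CS 72 h it was down at 41.00 and 36.3 RPKM (-3.55 ± 0.39, adjusted p = 7.45e-12). A 3-isopropylmalate dehydrogenase (OPB45831) was called as higher in 8 of 9 comparisons, for instance with 14.8, 12.9 and 17.3 RPKM on Avicel at 24 h against 0.678, 0.117 and 0.371 RPKM at 0 h (3.54 ± 0.42, adjusted p = 7.57e-11). An aldolase/citrate lyase family gene (OPB37021, HpcH/HpaI type) was called as higher in 7 of 9 and passed in all 9, and another (OPB41016) in 5 of 9. A DAHP aldolase (OPB37889) was called as lower in 4 of 9, and threonine aldolase (OPB36684), which splits threonine into glycine and acetaldehyde, in 4 of 9 with 0.397, 0 and 0.827 RPKM on xylan at 72 h against 17.8, 16.3 and 19.4 RPKM at 0 h (-3.78 ± 0.36, adjusted p = 7.56e-15). A phosphoglycerate dehydrogenase-related gene (OPB42014) had 19.8, 15.8 and 18.9 RPKM on xylan at 72 h and at most 0.425 RPKM at 0 h (3.91 ± 0.31, adjusted p = 6.52e-18).

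Avicel and xylan were then compared with each other at each time. At 4 h, 5 of 56 members were higher on Avicel and none lower (all genes 17.6% in either direction). When only the libraries of these groups were fitted 27 passed, a count given without the share of all genes in that fit. At 24 h, 29 members were lower and 11 higher on Avicel (all genes 26.2% lower and 30.9% higher), 12 of the 16 glycolysis genes were lower and 2 higher, and the glycolysis median was -1.90 against 0.09 over all genes. Called as lower were 11 members, where 7.78% of all genes were. GAPDH 1 had 25.9, 17.3 and 47.8 RPKM on Avicel and 1843, 2343 and 2492 on xylan (-6.26 ± 0.87, adjusted p = 7.72e-09), the mutase OPB36681 66.3, 75.03 and 102 RPKM on Avicel and 2579, 2989 and 2567 on xylan (-5.07 ± 0.65, adjusted p = 8.43e-10). Phosphofructokinase had 46.7, 44.04 and 33.9 RPKM on Avicel and 257, 396 and 261 on xylan (-2.83 ± 0.34, adjusted p = 1.57e-10). None of these libraries overlapped. Phosphoglycerate kinase, isozyme 2 of GAPDH, enolase, a bisphosphoglycerate-type mutase (OPB38946) and the PDH kinase were called as lower too, with log2 differences of -3.41, -2.44, -2.33, -2.49 and -2.54.

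At 72 h 16 members were higher and 17 lower on Avicel than on xylan (all genes 42.9% in either direction), and without the library that stands apart 25 were higher and 17 lower (all genes 58.6%). Aldolase was lower on Avicel with and without it. It had 609.9, 397 and 1537 RPKM on Avicel and 4564, 4529.5 and 3820.4 on xylan (-2.57 ± 0.26, adjusted p = 2.26e-13), and the difference without that library was -2.15 ± 0.20 (adjusted p = 8.23e-15). For phosphoglycerate kinase the difference was -2.63 ± 0.58 (adjusted p = 0.000151) with it and -0.75 ± 0.31 (adjusted p = 0.0309) without it, no longer called. Without it glucokinase (3.13 ± 0.25, adjusted p = 8.9e-18) and the mutase OPB36681 (2.31 ± 0.29, adjusted p = 2.93e-10) were called as higher on Avicel, against 1.73 ± 0.53 (adjusted p = 0.00546) and 0.12 ± 0.65 (adjusted p = 0.922) over all 3 libraries.

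The next comparison sets each polysaccharide against carbon starvation at the same time. At 24 h 29 members were higher on xylan than at CS and 9 lower (all genes 26.4% higher and 27.7% lower), with 11 glycolysis genes higher, 2 lower and a median of 1.99 against -0.03 over all genes. Avicel at 24 h differed from CS in 4 members, 2 in each direction, where 7.83% of all genes differed. That count depends on the spread assumed. With any 1 library of these 2 groups omitted it lay between 0 and 3. It was 0 without Avicel replicate 2, CS replicate 2 or CS replicate 3, and 1 without Avicel replicate 3 or CS replicate 1. A fit of these 2 groups alone gave 26, and a fit with array weights 30. For such alternative fits the share of all genes is not given here, so that their counts cannot be set against one. GAPDH 1 had 25.9, 17.3 and 47.8 RPKM on Avicel and 58.5, 65.9 and 65.05 at CS 24 h (-1.15 ± 0.87, adjusted p = 0.492). Pyruvate kinase had 369, 496 and 408 RPKM on xylan and 78.1, 88.00 and 80.97 at CS 24 h (2.34 ± 0.33, adjusted p = 9.39e-09), without overlap. At 4 h 1 member was higher and 4 lower on xylan than at CS (all genes 20.4%, and 31 members passed when only these groups were fitted), and by limma no member passed between Avicel and CS (all genes 0.618%), where 3 members had an unadjusted p under 0.05 and 7 passed in a fit with array weights.

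At CS 72 h the glycolysis genes of WT summed to 1678 RPKM on average, the lowest of the WT groups, against 34566 RPKM on xylan at 72 h. On xylan 20 members were higher and 12 lower than at CS (all genes 23.3% and 25.0%), and 13 were called as higher where 8.56% of all genes were. Phosphoglycerate kinase had 10616, 8747 and 9189.8 RPKM on xylan and 41.4 and 44.4 at CS (7.76 ± 0.65, adjusted p = 1.39e-16). D-3-phosphoglycerate dehydrogenase had 7886, 7029 and 7255 RPKM on xylan and 41.00 and 36.3 at CS (7.54 ± 0.39, adjusted p = 1.79e-26). Between Avicel and CS 21 members were higher and 8 lower (all genes 22.5% and 23.5%), with 11 called as higher (all genes 6.42%). Without the library that stands apart they were 28 higher and 13 lower (all genes 65.7% in either direction), with 15 called as higher (all genes 11.7%). Enolase had 10098, 229 and 17689 RPKM on Avicel and 227 and 232 at CS (3.90 ± 0.62, adjusted p = 7.08e-07), so that 1 Avicel library lay between the CS libraries, and the difference without it was 5.86 ± 0.28 (adjusted p = 6.54e-28). The RPKM summed over all genes was lowest in WT CS 72 h, with a mean of 579579.9, and its part in these differences was not tested. As a share of that sum the glycolysis genes had 0.29% at CS 72 h and 1.64% at 0 h.

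In ∆Tgxyr1 the later steps of glycolysis were higher than in WT on Avicel and under starvation at 24 h. On Avicel at 24 h 26 of 56 members were higher and 14 lower in ∆Tgxyr1 than in WT (all genes 27.8% higher and 29.6% lower), and 11 of 16 glycolysis genes were higher and 3 lower, with a median of 1.49 against -0.04 over all genes. Called as higher were 8 members, where 8.50% of all genes were. GAPDH 1 had 9715, 5907 and 12279.9 RPKM in ∆Tgxyr1 and 25.9, 17.3 and 47.8 in WT (8.27 ± 0.87, adjusted p = 8.9e-13). The mutase OPB36681 had 2539, 1493 and 3223 RPKM in ∆Tgxyr1 and 66.3, 75.03 and 102 in WT (4.83 ± 0.65, adjusted p = 2.12e-09). Enolase had 10432, 9419 and 12434 RPKM in ∆Tgxyr1 and 1954, 2189 and 1966 in WT (2.39 ± 0.55, adjusted p = 0.000156). In each of these genes every ∆Tgxyr1 library lay above every WT library. Phosphoglycerate kinase (2.70 ± 0.58), isozyme 2 of GAPDH (2.33 ± 0.37), phosphofructokinase (2.58 ± 0.34) and the mutase OPB38946 (2.68 ± 0.32) were called as higher too. The hexokinase gene OPB42146 was lower, with 16.3, 22.7 and 21.3 RPKM in ∆Tgxyr1 and 68.3, 67.1 and 72.5 in WT (-1.75 ± 0.23, adjusted p = 9e-10).

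The summed RPKM of the 17 glycolysis genes on Avicel at 24 h was 40811 ± 9576 in ∆Tgxyr1 and 6434 ± 299 in WT (SD, n = 3 each). The sum over all genes moved in the same direction, with a mean of 2832004 in ∆Tgxyr1 and 1075639 in WT, and its part in the result was not tested. As a share of that sum glycolysis had 1.43 ± 0.111% in ∆Tgxyr1 and 0.601 ± 0.0586% in WT.

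Under carbon starvation most members that passed were higher as well. At CS 24 h 23 members were higher and 9 lower in ∆Tgxyr1 (all genes 25.8% and 24.0%), with 10 glycolysis genes higher and 3 lower. GAPDH 1 had 7295, 8273 and 6255 RPKM in ∆Tgxyr1 and 58.5, 65.9 and 65.05 in WT (6.82 ± 0.87, adjusted p = 9e-10). At CS 72 h 20 were higher and 10 lower (all genes 21.1% and 21.7%). GAPDH 1 had 879, 683 and 917 RPKM in ∆Tgxyr1 there, against 0.172 and 0.0573 in WT (9.53 ± 0.98, adjusted p = 5.91e-13). Phosphoglycerate kinase had 782, 373 and 362 RPKM in ∆Tgxyr1 and 41.4 and 44.4 in WT (3.43 ± 0.65, adjusted p = 1.17e-05). D-3-phosphoglycerate dehydrogenase had 2315, 1565 and 1309 RPKM in ∆Tgxyr1 and 41.00 and 36.3 in WT (5.41 ± 0.39, adjusted p = 4.02e-19). None of these libraries overlapped. The CS groups of ∆Tgxyr1 had a higher sum over all genes than those of WT, for instance 1032975 in ∆Tgxyr1 and 579579.9 in WT at 72 h.

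**Figure D4:**
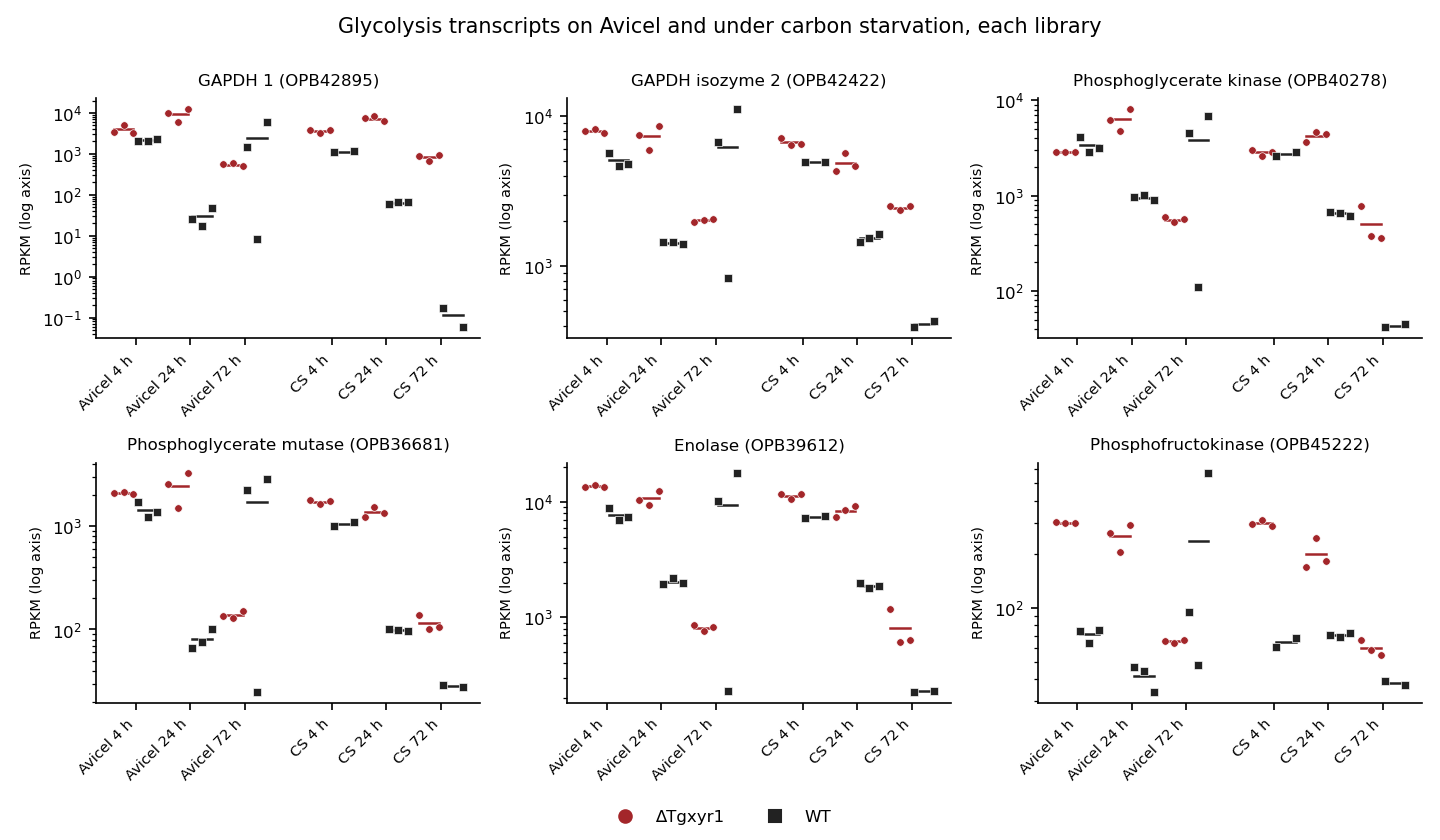
RPKM (log axis) of 6 glycolysis genes in each library of ∆Tgxyr1 (left, circles) and WT (right, squares) on Avicel and under CS at 4, 24 and 72 h, with group means as bars. GAPDH 1 is at 5907 to 12279.9 RPKM in ∆Tgxyr1 on Avicel at 24 h and at 17.3 to 47.8 RPKM in WT.

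On xylan at 72 h and on Avicel at 72 h the direction was the opposite one. On xylan at 72 h 20 members were lower and 8 higher in ∆Tgxyr1 (all genes 27.1% lower and 25.6% higher), and 9 glycolysis genes were lower and 1 higher. The sum over all genes averaged 1792034 in ∆Tgxyr1 and 2287967 in WT, of which glycolysis had 0.534 ± 0.0703% in ∆Tgxyr1 and 1.51 ± 0.0512% in WT. Phosphoglycerate kinase had 704, 896 and 930.2 RPKM in ∆Tgxyr1 and 10616, 8747 and 9189.8 in WT (-3.500 ± 0.58, adjusted p = 4.6e-07), and enolase 621, 976 and 842 RPKM in ∆Tgxyr1 and 6239, 5990.4 and 5566 in WT (-2.89 ± 0.55, adjusted p = 7.59e-06). Pyruvate kinase had 26.1, 31.5 and 31.2 RPKM in ∆Tgxyr1 and 116, 113 and 129.5 in WT (-1.98 ± 0.33, adjusted p = 4.28e-07). No libraries overlapped. On Avicel at 72 h 22 members were lower and 9 higher (all genes 26.5% and 23.6%), and without the WT library that stands apart 32 were lower and 13 higher (all genes 65.4% in either direction), with 12 glycolysis genes lower and 9 of them called (all genes 9.97% called as lower). Glucokinase had 45.99, 47.9 and 42.5 RPKM in ∆Tgxyr1 and 1508, 101.2 and 2347 in WT (-3.94 ± 0.53, adjusted p = 2.48e-09 with that library and -5.34 ± 0.25, adjusted p = 1.65e-28 without it). For GAPDH 1, with 549, 586 and 496 RPKM in ∆Tgxyr1 and 1461, 8.31 and 5996 in WT, that library decided the outcome (0.33 ± 0.87, adjusted p = 0.794 with it and -2.45 ± 0.42, adjusted p = 7.93e-07 without it).

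Already on glucose ∆Tgxyr1 differed from WT in 20 of 56 members, 14 of them lower (all genes 25.4% in either direction). Phosphoglycerate kinase had 494, 717 and 588 RPKM in ∆Tgxyr1 and 3051, 3052 and 2374 in WT (-2.24 ± 0.58, adjusted p = 0.00225). Glucokinase had 261, 226 and 219 RPKM in ∆Tgxyr1 and 1189, 1170.2 and 904 in WT (-2.20 ± 0.53, adjusted p = 0.000862). A class II aldolase (OPB41543) had 8.29, 8.86 and 7.66 RPKM in ∆Tgxyr1 and 186, 184 and 149 in WT (-4.23 ± 0.48, adjusted p = 6.54e-11), and it was called as lower at 4 h on xylan, Avicel and CS as well (-3.82 ± 0.48, -3.18 ± 0.48 and -3.26 ± 0.53). Members passing at 4 h were 20 higher and 5 lower on xylan (all genes 41.2%), 13 and 6 on Avicel (34.4%) and 10 and 6 at CS (31.5%). Phosphofructokinase was higher at 4 h, with 302, 298 and 299 RPKM in ∆Tgxyr1 and 74.3, 63.9 and 75.1 in WT on Avicel (2.06 ± 0.34, adjusted p = 1.45e-06), and was also called as higher on xylan (2.21 ± 0.34) and at CS (2.20 ± 0.38). On xylan at 24 h 14 members were higher and 21 lower (all genes 54.2% in either direction), pyruvate kinase being lower with 58.3, 68.9 and 62.1 RPKM in ∆Tgxyr1 and 369, 496 and 408 in WT (-2.72 ± 0.33, adjusted p = 8e-11). The PDH kinase had 32.1, 29.1 and 24.3 RPKM in ∆Tgxyr1 and 179.7, 163 and 185 in WT there (-2.59 ± 0.30, adjusted p = 2.87e-11).

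Triosephosphate isomerase was lower than in WT in each of the 3 mutants. It passed as lower in 8 of 10 comparisons of ∆Tgxyr1, in 7 of 7 of ∆Tgace1 and in 7 of 7 of ∆Tgace2 with WT, and in none as higher. On xylan at 72 h it had 221, 211 and 198 RPKM in ∆Tgxyr1, 103, 76.5 and 90.4 in ∆Tgace1 and 122, 119.5 and 143 in ∆Tgace2, against 2388, 2009 and 2112 RPKM in WT. The differences were -3.36 ± 0.31 (adjusted p = 4.47e-15), -4.58 ± 0.31 (adjusted p = 3.6e-21) and -4.07 ± 0.31 (adjusted p = 2.03e-18). At 0 h it had 260.1, 238 and 239 RPKM in ∆Tgxyr1, 200.3, 212 and 201 in ∆Tgace1, 272, 279 and 490.0 in ∆Tgace2 and 901, 909 and 667 in WT, the differences from WT being -1.73 ± 0.31, -1.997 ± 0.31 and -1.29 ± 0.31 (adjusted p = 1.06e-05, 3.82e-07 and 0.00111). The change between 0 h and 24 h on xylan or Avicel did not pass as different from that of WT in any mutant (6 interactions by limma, adjusted p between 0.0831 and 0.84, 2 with an unadjusted p under 0.05). Without the libraries that stand apart it still passed as lower in each comparison they enter, with differences between -3.78 and -1.67. The comparisons of the mutants share the WT libraries. The PDH kinase was lower in 7 of 10, 6 of 7 and 4 of 7 comparisons of ∆Tgxyr1, ∆Tgace1 and ∆Tgace2 with WT, and higher in none.

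**Figure D5:**
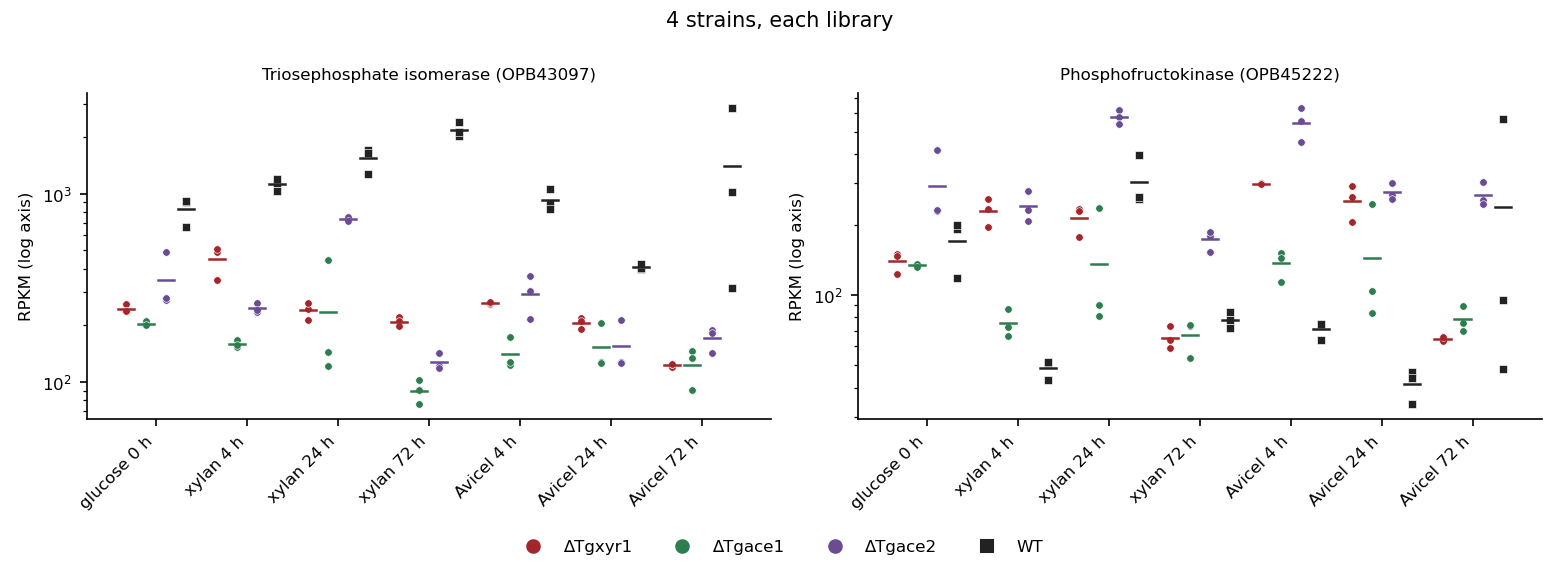
RPKM (log axis) of triosephosphate isomerase and phosphofructokinase in each library of ∆Tgxyr1, ∆Tgace1, ∆Tgace2 and WT (left to right) at 0 h and on xylan and Avicel at 4, 24 and 72 h, with group means as bars. On xylan at 72 h triosephosphate isomerase is at 76.5 to 221 RPKM in the mutants and at 2009 to 2388 RPKM in WT.

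In ∆Tgace1 more glycolysis genes were lower than higher against WT on xylan at each time, on Avicel at 72 h, and already on glucose. On glucose 8 of 16 glycolysis genes were lower and 3 higher (all genes 39.4% in either direction), at a median of -1.05. Without replicate 3 of the glucose group 9 were lower and 2 higher (all genes 43.5%), at a median of -0.65. On xylan at 72 h 23 of 56 members were lower and 16 higher than in WT (all genes 27.0% lower and 27.0% higher). Of the 16 glycolysis genes 10 were lower and 2 higher there, and the median was -1.78 against 0.08 over all genes. Called as lower were 12 members, where 9.35% of all genes were. The summed RPKM of the glycolysis genes there was 3730.1 ± 1276 in ∆Tgace1 and 34566 ± 2207 in WT (SD, n = 3 each), while the sum over all genes averaged 706110.1 in ∆Tgace1 and 2287967 in WT. As a share of that sum glycolysis had 0.518 ± 0.118% in ∆Tgace1 and 1.51 ± 0.0512% in WT, and the part of the sum in the result was not tested. Aldolase had 576, 366 and 498 RPKM in ∆Tgace1 and 4564, 4529.5 and 3820.4 in WT (-3.18 ± 0.26, adjusted p = 8.67e-18). Isozyme 2 of GAPDH had 1291, 602 and 1135 RPKM in ∆Tgace1 and 10056, 9275 and 9638 in WT (-3.33 ± 0.37, adjusted p = 5.88e-12). D-3-phosphoglycerate dehydrogenase had 791, 137 and 505 RPKM in ∆Tgace1 and 7886, 7029 and 7255 in WT (-4.28 ± 0.35, adjusted p = 2.92e-17). The succinate dehydrogenase cytochrome b subunit OPB37196 had 124, 122 and 125 RPKM in ∆Tgace1 and 1195, 992 and 936 in WT (-3.05 ± 0.18, adjusted p = 1.38e-24). In all of these the strains did not overlap. GAPDH 1 had 65.4, 26.3 and 71.3 RPKM in ∆Tgace1 and 1171, 1145 and 907 in WT (-4.39 ± 0.87, adjusted p = 1.6e-05), and phosphoglycerate kinase 1225, 387 and 1013 RPKM in ∆Tgace1 and 10616, 8747 and 9189.8 in WT (-3.60 ± 0.58, adjusted p = 2.59e-07).

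On xylan at 24 h 26 members were lower and 17 higher in ∆Tgace1 (all genes 54.2% in either direction), and 12 of 16 glycolysis genes were lower and 3 higher, at a median of -1.38 against 0.14 over all genes. Without replicate 2 of that group, which stands apart, 29 were lower and 19 higher (all genes 61.7%). The PDH kinase had 13.2, 23.5 and 11.8 RPKM in ∆Tgace1 and 179.7, 163 and 185 in WT (-3.42 ± 0.30, adjusted p = 2.17e-15 with that library and -3.71 ± 0.23, adjusted p = 9.82e-23 without it), and the PDH phosphatase 11.04, 18.02 and 13.95 RPKM in ∆Tgace1 and 1.30, 1.16 and 1.45 in WT (2.71 ± 0.25, adjusted p = 1.45e-14 with it and 2.54 ± 0.25, adjusted p = 3.63e-14 without it). The phosphatase passed as higher in 7 of 7 comparisons of ∆Tgace1 with WT, and the kinase as lower in 6 of 7. GAPDH 1 had 125, 1200.0 and 88.97 RPKM in ∆Tgace1 and 1843, 2343 and 2492 in WT (-3.21 ± 0.87, adjusted p = 0.00141 with that library and -4.38 ± 0.42, adjusted p = 3.75e-14 without it). The sum over all genes averaged 1354699 in ∆Tgace1 and 1978893 in WT there, and glycolysis took 0.791 ± 0.236% of it in ∆Tgace1 and 1.96 ± 0.124% in WT. At xylan 4 h 15 members were higher and 12 lower (all genes 37.6% in either direction), and of the 16 glycolysis genes 2 were higher and 4 lower, at a median of -0.50.

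On Avicel the ∆Tgace1 groups each hold 1 library that stands apart. At 24 h 21 members were higher and 6 lower (all genes 41.5% in either direction), and 23 and 9 without replicate 1 (all genes 45.2%). GAPDH 1 had 2389.6, 315 and 370.5 RPKM in ∆Tgace1 and 25.9, 17.3 and 47.8 in WT (4.505 ± 0.87, adjusted p = 1.77e-05 with that library and 3.57 ± 0.42, adjusted p = 9.12e-11 without it), so that every ∆Tgace1 library was higher than every WT library. The mutase OPB36681 had 2834, 577 and 679 RPKM in ∆Tgace1 and 66.3, 75.03 and 102 in WT (3.68 ± 0.65, adjusted p = 3.11e-06 with it and 2.96 ± 0.29, adjusted p = 1.31e-13 without it). At 72 h 13 were higher and 14 lower (all genes 46.4%), and 18 and 21 without replicate 3 of ∆Tgace1 and replicate 2 of WT (all genes 59.3%). Called as lower were 3 with every library (all genes 3.37%) and 11 without those (all genes 6.70%). Of the 16 glycolysis genes 8 were lower and 2 higher at 72 h, at a median of -0.79 against 0.105 over all genes. Without those libraries 12 were lower and 2 higher, at a median of -1.69. At 4 h 10 members were higher and 8 lower (all genes 34.9%), and 18 and 14 without replicate 2 (all genes 44.9%). On glucose 14 were higher and 16 lower (all genes 39.4%), and 14 and 20 without replicate 3 (all genes 43.5%). The PDH kinase had 37.5, 32.2 and 54.6 RPKM on glucose in ∆Tgace1 and 253, 246 and 297 in WT (-2.68 ± 0.30, adjusted p = 5.57e-11 with that library and -2.89 ± 0.23, adjusted p = 5.17e-17 without it). Phosphoglycerate kinase was called as lower on glucose (-2.33 ± 0.58, adjusted p = 0.000976) but not without that library (-1.82 ± 0.31, adjusted p = 1.27e-06). OPB42014 was called as higher in ∆Tgace1 in 5 of 7 conditions, for instance with 24.1, 20.7 and 20.02 RPKM in ∆Tgace1 and 0.874, 0.9 and 0.649 in WT on xylan at 4 h (3.65 ± 0.31, adjusted p = 5.76e-16).

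In ∆Tgace2, too, most glycolysis genes were higher than in WT on Avicel at 24 h. There 27 members were higher and 8 lower than in WT (all genes 26.4% higher and 27.0% lower), 11 of 16 glycolysis genes were higher and 2 lower, and the median was 1.80 against 0 over all genes. Called as higher were 8, where 7.52% of all genes were. GAPDH 1 had 5864, 6959 and 6569 RPKM in ∆Tgace2 and 25.9, 17.3 and 47.8 in WT (7.81 ± 0.87, adjusted p = 1.19e-11). The mutase OPB36681 had 2911, 3259 and 3818 RPKM in ∆Tgace2 and 66.3, 75.03 and 102 in WT (5.36 ± 0.65, adjusted p = 1.71e-10). Glucokinase had 556, 685 and 899 RPKM in ∆Tgace2 and 167, 181 and 174 in WT (2.001 ± 0.53, adjusted p = 0.000931). In each the strains did not overlap. The summed glycolysis RPKM was 41103 ± 4243 in ∆Tgace2 and 6434 ± 299 in WT (SD, n = 3 each), or 1.64 ± 0.153% and 0.601 ± 0.0586% of the sum over all genes. That sum averaged 2503249 in ∆Tgace2 and 1075639 in WT, and its part in the result was not tested.

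In the other conditions fewer members of ∆Tgace2 passed. On glucose 12 members were higher and 4 lower (all genes 25.1% in either direction), on xylan 13 and 3 at 4 h (35.4%), 11 and 5 at 24 h (31.1%) and 19 and 10 at 72 h (44.6%). On Avicel they were 17 and 3 at 4 h (32.6%) and 16 and 5 at 72 h (39.5%), the last becoming 15 and 19 without the WT library that stands apart (all genes 46.2%). The mutase OPB36681 was called as higher on Avicel at 72 h (2.25 ± 0.65, adjusted p = 0.00403) and was not without that library (0.05 ± 0.29, adjusted p = 0.916). Phosphofructokinase was higher in 6 of 7 conditions and lower in none, but on Avicel at 72 h not without that library (0.20 ± 0.28, adjusted p = 0.599). On Avicel at 4 h it had 454, 633 and 554 RPKM in ∆Tgace2 and 74.3, 63.9 and 75.1 in WT (2.92 ± 0.34, adjusted p = 2.17e-10), without overlap. On Avicel at 4 h 5 of 6 TCA members were higher, with a median of 1.03 against 0.01 over all genes. The succinate dehydrogenase cytochrome b subunit OPB37196 was lower on xylan at 72 h, with 282, 232 and 223 RPKM in ∆Tgace2 and 1195, 992 and 936 in WT (-2.08 ± 0.18, adjusted p = 3.04e-16).

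Whether a mutant answered the move from glucose differently from WT was tested as an interaction, the change from 0 h to 24 h in the mutant minus that in WT. On Avicel 24 members passed with a more positive change in ∆Tgxyr1 than in WT and 12 with a more negative one (all genes 23.1% and 26.5%). For ∆Tgace1 they were 22 and 8 (all genes 16.2% and 19.2%) and for ∆Tgace2 16 and 7 (all genes 19.9% and 21.9%). Called interactions on Avicel numbered 18 in ∆Tgxyr1 (all genes 15.0%), 11 in ∆Tgace1 (9.65%) and 10 in ∆Tgace2 (11.0%), and on xylan 4 (12.5%), 3 (5.38%, or 9 without its libraries that stand apart, where 9.68% of all genes were called) and 1 (2.32%). GAPDH 1 had the largest interaction in each mutant, at 7.34 ± 1.24 (adjusted p = 1.15e-06) in ∆Tgxyr1, 6.26 ± 1.24 (adjusted p = 4.53e-05) in ∆Tgace1 and 7.01 ± 1.24 (adjusted p = 5.89e-06) in ∆Tgace2. The mutase OPB36681 followed with 6.38 ± 0.92, 4.88 ± 0.92 and 5.70 ± 0.92 (adjusted p = 3.78e-08, 2.09e-05 and 1.13e-06). The interactions of the 3 mutants subtract the same WT change and share its libraries, so that they are not independent of each other. The values for ∆Tgace1 without its libraries that stand apart were 4.84 ± 0.60 (adjusted p = 7.77e-10) for GAPDH 1 and 3.62 ± 0.41 (adjusted p = 5.59e-11) for the mutase, and the members that passed were 24 more positive and 10 more negative (all genes 38.7% in either direction). On xylan 11 members were more positive and 12 more negative in ∆Tgxyr1 (all genes 41.1% in either direction), 9 and 8 in ∆Tgace1 (25.5%, or 10 and 27 without its libraries that stand apart, against 41.6% of all genes) and 2 and 2 in ∆Tgace2 (15.7%). The largest interactions on xylan were those of the class II aldolase OPB41543 (5.25 ± 0.67, 3.64 ± 0.67 and 2.38 ± 0.67 for ∆Tgxyr1, ∆Tgace1 and ∆Tgace2).

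Genes of the neighbouring pathways, which the search words did not reach or excluded, gave a context for these values. Among the 7 mitochondrial counterparts 5 were higher and 1 lower on xylan than at CS at 72 h (all genes 23.3% and 25.0%), with a median of 1.56. Of 7 steps the words missed, 1 of them the E3 subunit that is also a member, 7 were higher in the same comparison and 7 were lower in ∆Tgace1 than in WT on xylan at 72 h (all genes 27.0% lower, median of the 7 -2.67). Phosphoenolpyruvate carboxykinase (OPB36548), the entry to gluconeogenesis, had a mean of 28924 RPKM in ∆Tgxyr1 and 7061 RPKM in WT on Avicel at 24 h (2.05 ± 0.50, adjusted p = 0.000374). The list of 7 glyoxylate cycle and gluconeogenesis genes also held genes of neither pathway. These were the methylisocitrate lyases OPB41275 and OPB43474 and OPB41696, described as isopropylmalate/homocitrate/citramalate synthases. Of the 7 listed genes, 6 were higher and none lower in ∆Tgxyr1 than WT on Avicel at 24 h (all genes 27.8% and 29.6%). In ∆Tgace2 1 was higher and none lower there (all genes 26.4% and 27.0%). A pyruvate decarboxylase (OPB36936), which opens the route to ethanol, had a mean of 23428 RPKM in ∆Tgxyr1, 36187 in ∆Tgace2 and 3334 RPKM in WT on Avicel at 24 h (2.80 ± 0.55, adjusted p = 1.21e-05 for ∆Tgxyr1 and 3.44 ± 0.55, adjusted p = 2.51e-07 for ∆Tgace2). Of the 9 pentose phosphate pathway genes, 3 of them transaldolases that are also members, 8 were higher and none lower on xylan than at CS at 24 h (all genes 26.4% and 27.7%), and 6 were lower and none higher on Avicel than on xylan at 24 h (all genes 26.2% and 30.9%).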

How the data were processed

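The expression table was deposited by the authors as RPKM per gene and library. Per the study's methods, reads were filtered with the FASTX-Toolkit and aligned with Bowtie2 in TopHat2, and values were normalized with Cuffnorm. The submitters' processing notes also name Cufflinks. Versions and the scaling option are not given in the sources used here. Read counts were not recovered from these values, so depth is unknown, no counting interval is given, and an exact 0 is only listed at 0.

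From these values log2(RPKM + 1) was computed for the 10026 of 11244 genes above 1 RPKM in at least 2 libraries. This scale understates the change of low genes. A model of 34 groups and 100 libraries (66 residual degrees of freedom) was fitted with limma 3.58.1 (R 4.3.3) with a mean-variance trend, and p-values were adjusted by Benjamini-Hochberg over all genes tested in each comparison. The fit was tested on simulated data. Figures were drawn with Python 3.11.15 and matplotlib 3.10.9. Groups follow the sample labels. The study names 3 biological repeats per sampling point, and no label ties replicate numbers to a shared day, so that p-values measure the spread between these libraries.

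The members, the gene lists and the tests were chosen with earlier results of these data known. Named members were the gene with the highest mean RPKM in each step, at most the 3 largest called rises and falls of each WT comparison with 0 h, genes called in at least 2 conditions of a mutant against WT, and genes with a called interaction. OPB37801, OPB38234, OPB38792, OPB40371, OPB41501, OPB44763 and OPB45526 were named after their values were seen, as were phosphoenolpyruvate carboxykinase and pyruvate decarboxylase, and the 4 members not tested are named for completeness. Alternatives were pseudocounts of 0.1 and 2, no filter, median scaling, array weights, a replicate block, the limits of the study's methods with adjusted p, fits of the compared groups alone, each library left out, medians over members of a named step only, and shares of the summed RPKM. The fit without the 6 libraries that stand apart, each most similar to a library of another group and with a mean correlation under 0.96 with its own, was chosen after seeing the data and tested 9994 genes. TgACE1 and reference sequences were not used here. No check of the ∆Tgace2 label is reported here.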

Additional observations from a re-analysis of the deposited data

Results flagged for a closer look

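The change from 0 h to 24 h differed between a mutant and WT in 47 tests of single members, each called as an interaction by limma (adjusted p of 0.01 or less and an absolute log2 interaction of at least 2). Values are the change in the mutant minus the change in WT.

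On Avicel at 24 h, ∆Tgxyr1 gave 18 of them among 56 tested members, where 15.0% of all genes were called. Glycolysis genes with a more positive change than in WT were GAPDH 1 with 7.34, phosphoglycerate mutase OPB36681 with 6.38, phosphoglycerate kinase with 4.94, GAPDH isozyme 2 with 3.40, glucokinase with 3.40, the mutase OPB38946 with 3.16, enolase with 2.99, phosphofructokinase with 2.82 and fructose-bisphosphate aldolase with 2.22. The hexokinase gene OPB42146 was more negative at -2.28. Aconitate hydratase had 2.22. Among the other members, D-3-phosphoglycerate dehydrogenase (OPB42635) had 3.803, OPB45079 3.51, the class II aldolase OPB41543 3.23, the DAHP aldolase OPB42164 3.05, the transaldolase OPB41593 2.04, OPB37021 -2.64 and the deoxyribose-phosphate aldolase OPB45181 -2.32.

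In ∆Tgace1 on Avicel 11 were found (all genes 9.65%), with 6.26 for GAPDH 1, 4.88 for OPB36681, 3.27 for phosphoglycerate kinase, 2.84 for glucokinase, 2.33 for pyruvate kinase and 2.72 for the PDH kinase. The others were 3.67 for OPB45079, 2.27 for homoaconitase OPB45178, 2.07 for threonine aldolase OPB36684, 2.05 for the DAHP aldolase OPB37889 and -2.93 for OPB37021. Without the libraries that stand apart glucokinase (1.03), pyruvate kinase (1.57), OPB37889 (1.90) and OPB45178 (1.86) were no longer called.

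In ∆Tgace2 on Avicel 10 were found (all genes 11.0%), with 7.01 for GAPDH 1, 5.70 for OPB36681, 3.86 for phosphoglycerate kinase, 3.73 for glucokinase, 2.41 for GAPDH isozyme 2, 2.17 for OPB38946 and -2.50 for the hexokinase gene OPB42146. OPB45079 had 3.44, OPB42164 2.37 and OPB37021 -2.49.

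On xylan at 24 h all of them were members outside the named steps when every library was used. All genes called there were 12.5% in ∆Tgxyr1, 5.38% in ∆Tgace1 and 2.32% in ∆Tgace2. ∆Tgxyr1 had 5.25 for OPB41543, 3.71 for OPB42635, 3.31 for the gluconokinase OPB46818 and -2.14 for OPB37350. ∆Tgace1 had 3.64 for OPB41543, 3.15 for OPB42014 and 2.40 for the 3-isopropylmalate dehydrogenase OPB45831. Without the libraries that stand apart these 3 were called again, and 3 members of a named step were called as more negative in ∆Tgace1, namely GAPDH 1 (-3.11, against -1.46 with every library), the mutase OPB38946 (-2.25, against -1.62) and malate dehydrogenase OPB40371 (-2.26, against -1.95). ∆Tgace2 had 2.38 for OPB41543. No group held 4 or more libraries, so no library was tested as an outlier.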

How the results depend on the processing

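Among 304 differences of named genes that were past their threshold, none changed direction under any alternative. Past the threshold remained 300 with a pseudocount of 0.1, 280 with a pseudocount of 2, 302 without the filter, 294 with median scaling, 284 with array weights and 256 when only the compared groups were fitted. Leaving out 1 library of the compared groups kept 1914 of 2047, and leaving out the 6 libraries that stand apart kept 62 of 72. The weights of the array-weight fit did not fully converge. The median log2 difference over all genes tested was more than 0.1 from 0 for ∆Tgace1 and WT at 24 h on xylan (0.14) and at 72 h on Avicel (0.105), and in the Avicel 24 h interactions of ∆Tgxyr1 (-0.17), ∆Tgace1 (-0.11) and ∆Tgace2 (-0.12). Median scaling moved none of 27 counts by over 1.5 times. Of 18 medians over the members it moved 4 by at least the spread between libraries. Leaving out the filter moved 3 of these medians, and fitting the compared groups alone moved 2. Taking only members of a named step moved 9.

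Counts of members passing moved by over 1.5 times with array weights, to 38 on xylan at 24 h and 37 at CS 4 h against 0 h, 31 for Avicel against xylan and 34 for xylan against CS at 4 h, 7 for Avicel against CS at 4 h, 30 at 24 h and 44 at 72 h. When only the compared groups were fitted they were 0 for Avicel at 72 h against 0 h, 27 and 1 for Avicel against xylan at 4 and 72 h, 31 for xylan against CS at 4 h, and 4, 26 and 0 for Avicel against CS at 4, 24 and 72 h. With the limits of the study's methods and adjusted p they were 7, 3 and 13 on xylan, 3, 13 and 3 on Avicel and 4, 13 and 19 at CS against 0 h (4, 24 and 72 h), 0, 12 and 5 for Avicel against xylan, 0, 13 and 14 for xylan against CS, and 0 and 11 for Avicel against CS at 24 and 72 h. No share of all genes is given here for the array-weight fit or the fits of the compared groups alone. Their counts therefore cannot be set against all genes.

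Members with a called interaction of ∆Tgace1 on xylan numbered 3, but 9 with array weights, 1 with the compared groups alone and 9 without the libraries that stand apart, and for ∆Tgace1 on Avicel 6 with the compared groups alone in place of 11. The 1 called interaction of ∆Tgace2 on xylan was 0 with a pseudocount of 0.1, without the filter and with the replicate block. Libraries of the compared groups were also left out 1 at a time. This gave 2 to 6 for ∆Tgace1 on xylan and 0 to 1 for ∆Tgace2 on xylan. For Avicel against xylan at 4 h it gave 2 to 5, and for xylan against CS at 4 h 2 to 4. For Avicel against CS it gave 0 to 3 at 24 h and 19 to 37 at 72 h. The causes were not tested.

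In 0 of 42 comparisons was every same-numbered pair correlated above 0.1 in its deviations from the group means. The rule needed at least 3 pairs, which comparisons with WT CS at 4 or 72 h could not give. With so few libraries per group it cannot show that pairing by replicate number is absent. With the replicate block 302 of 304 differences and 26 of 27 counts were on the same side.

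Taken as a share of the RPKM summed over all genes, the log2 ratio of summed glycolysis RPKM to WT at 0 h reversed to -0.118 in WT on xylan at 72 h, -0.182, -0.200 and -0.492 in ∆Tgxyr1 on xylan, Avicel and CS at 24 h, and -0.0874, -0.227 and -0.000129 in ∆Tgace2 on xylan at 24 and 72 h and on Avicel at 24 h. Another 15 of the 33 ratios moved by at least the spread between libraries, and 11 did not. Depth is unknown, which limits what can be said of genes near 0.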
